A study of Mus musculus with 4 samples.

Results

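Signals that fibroblasts send to the immune system were examined in wild type against SIN1 knock-out mouse cells: the cytokines IL-33 and IL-6, the chemokines encoded by Ccl2, Ccl7, Ccl5, Cxcl1 and Cxcl12, the adhesion receptor VCAM-1, the prostaglandin enzyme COX-2 (Ptgs2) and lipocalin 2 (Lcn2). These 10 genes were measured by 12 probe sets of 45037 tested on the array, where a probe set is a group of short probes that together give 1 value. The probe sets were chosen by gene, from a list of manufacturer numbers made for this work with the SIN1 KO and wild type values of these same arrays in view. The contrast between the genotypes is therefore given as a description, with no p-value for these genes. The deposited table does not pair probe sets with genes, so the gene names rest on that list, and all 10 symbols were found in the RefSeq gene table for assembly GRCm38.p6.

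The series compared cells with an intact Mapkap1 gene, which encodes SIN1, with cells in which SIN1 was ablated, on 4 arrays, 2 for each genotype. Both genotypes are labelled as the C57BL/6 strain, as murine epithelial fibroblasts and as MEFs, and both were grown in DMEM with no further treatment named. The labels give neither the kind of SIN1 allele nor the number of embryos or clones behind each genotype, so the spread between arrays of a genotype may be technical. The labels add that the knock-out cells have altered metabolism. Levels of Mapkap1 and of fibroblast, epithelial, leukocyte and endothelial markers were not analysed here, because no table used here pairs their probe sets with genes. The genotype and cell type labels were thus not checked against the data, and the part of other cell types in any value below was not tested.

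SIN1 is a subunit of mTOR complex 2, a kinase complex that acts on AKT, SGK and PKC family kinases and so links growth factor signals to metabolism and survival. Fibroblasts act as sentinels of tissue damage: inflammatory stimuli acting through NF-kappaB, AP-1 and C/EBP transcription factors induce cytokines, chemokines and COX-2 in them. IL-33 differs from the others in that it is stored in the nucleus and released when cells are damaged. CXCL12 is made by many resting stromal cells and retains cells bearing the receptor CXCR4.

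RefSeq promoter entries (GRCm38.p6) were found for 6 of the 10 genes: Il33, Il6, Cxcl1, Cxcl12, Ptgs2 and Lcn2. Ccl2, Ccl7, Ccl5 and Vcam1 had none. The 250 bases before the start site were searched on both strands for the NF-kappaB consensus, for the AP-1 motif TGANTCA and for the C/EBP motif TTNNGCAA. Of these promoters, 4 are shown, because Cxcl1 was the gene with higher values in SIN1 KO while Ptgs2 and Lcn2 had lower ones, and because Il6 held a match to each motif. Bases are written 5′ to 3′ on the gene's own strand, and capitals mark every match.
Il6, chr5:30012864-30013113, plus strand: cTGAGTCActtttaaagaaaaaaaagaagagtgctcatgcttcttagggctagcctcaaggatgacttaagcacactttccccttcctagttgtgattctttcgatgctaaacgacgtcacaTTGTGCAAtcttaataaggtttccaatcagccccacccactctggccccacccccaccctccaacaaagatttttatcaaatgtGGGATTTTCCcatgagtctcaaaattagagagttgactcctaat
Cxcl1, chr5:90890995-90891244, plus strand: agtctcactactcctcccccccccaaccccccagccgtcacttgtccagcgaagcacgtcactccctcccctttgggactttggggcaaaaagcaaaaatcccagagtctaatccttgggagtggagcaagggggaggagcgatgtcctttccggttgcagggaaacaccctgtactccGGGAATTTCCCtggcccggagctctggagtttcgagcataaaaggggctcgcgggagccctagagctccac
Ptgs2, chr1:150099781-150100030, plus strand: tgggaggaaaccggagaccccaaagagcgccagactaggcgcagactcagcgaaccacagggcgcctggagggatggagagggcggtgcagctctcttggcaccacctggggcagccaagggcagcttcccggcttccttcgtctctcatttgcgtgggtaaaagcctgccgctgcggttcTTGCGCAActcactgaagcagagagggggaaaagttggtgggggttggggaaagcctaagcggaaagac
Lcn2, chr2:32387740-32387989, minus strand: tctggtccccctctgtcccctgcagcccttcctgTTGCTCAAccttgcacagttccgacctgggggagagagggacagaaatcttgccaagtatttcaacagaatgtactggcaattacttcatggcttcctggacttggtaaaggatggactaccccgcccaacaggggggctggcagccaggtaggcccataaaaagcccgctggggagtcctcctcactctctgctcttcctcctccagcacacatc

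The Il6 promoter held an NF-kappaB match at -44 to -35 from the start site, an AP-1 match at -249 to -243 and a C/EBP match at -128 to -121. In the Cxcl1 promoter the consensus matched on both strands in overlapping windows, at -71 to -62 and at -70 to -61. Ptgs2 held a C/EBP match at -69 to -62 and Lcn2 one at -216 to -209, and neither held an NF-kappaB or AP-1 match in this window. The second of the 2 Il33 start sites held a C/EBP match, at -85 to -78, and the Cxcl12 promoter and the first Il33 start site held no match to these 3 motifs. Among all 32851 promoter entries of this length, 7.25% held the NF-kappaB consensus, 6.75% the AP-1 motif and 9.56% the C/EBP motif. A match describes letters in a window of 250 bases and does not show binding. Il33 and Cxcl12, whose promoters are not shown, also had lower mean values in SIN1 KO. Whether a motif goes with the direction of a difference was not tested.

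Values are log2 expression from RMA, so 1 unit is a 2-fold difference. Array medians over all tested probe sets lay between 4.23 and 4.32. The background level of an array was taken as the highest of its 27 Bacillus subtilis control probe sets, 3.75 to 4.27. That level rests on the same control on each array; the second highest control lay at 3.27 to 3.64. Of the 48 values of the 12 probe sets, 8 were at or below the background level, and 6 were at or below the second highest control. Every probe set was above background on at least 1 array. Across probe sets the closest arrays were wild type 1 and SIN1 KO 1 (Pearson r = 0.971, over features that are not independent replicates), and the wild type arrays correlated less with each other (r = 0.955). The SIN1 KO arrays correlated at r = 0.958. The arrays of a genotype thus stood further apart than this pair of different genotypes. The least alike pair, wild type 2 and SIN1 KO 2, was of different genotypes too (r = 0.904).

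Most of the 12 listed probe sets had lower mean values in SIN1 KO than in wild type. The mean was lower for 11 of the 12, beside 46.0% of all probe sets, and Cxcl1 was the exception. Among the 27812 probe sets above background on at least 1 array, as all members were, 51.1% had a lower mean. These 11 include Il6, above background on 1 array only, and Ccl5, whose sign turned when an array was left out. The median difference of the 12 was -2.07 log2 units, beside 0.04 over all 45037 probe sets. For 7 of the 12, both SIN1 KO arrays lay below both wild type arrays. That pattern was found in 14.9% of all probe sets, and in 17.6% of the 27812 above background on at least 1 array. Each of those 7 also differed by at least 1 log2 unit in the mean, which together with the separation held for 4.12% of all probe sets. Leaving out 1 array loosens the rule by construction. The count was then 7 without wild type 1, 11 without wild type 2, 9 without SIN1 KO 1 and 9 without SIN1 KO 2. The share over all probe sets was not taken for that looser rule. For 1 of the 12, Cxcl1, both SIN1 KO arrays lay above both wild type arrays, as in 20.4% of all probe sets. The remaining 4 overlapped between the genotypes. Because the list was made with this contrast known, nothing is read from these shares.

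In the fit over all probe sets (limma, 2 against 2 arrays, Benjamini-Hochberg adjustment), 0% were called higher and 0% lower in SIN1 KO at an adjusted p under 0.05. At an unadjusted p under 0.05, limma gave 1350 higher and 1159 lower of 45037. With no difference at all, a share of 0.05 is expected at that threshold. With arrays scaled to the hybridisation controls it gave 5381 higher and 370 lower. That scaling moved the median difference of all probe sets from 0.04 to 0.36. No difference between genotypes described here passed a test. In these bulk RNA samples, fewer cells that express a gene and less of its RNA per cell cannot be told apart.

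**Figure D1:**
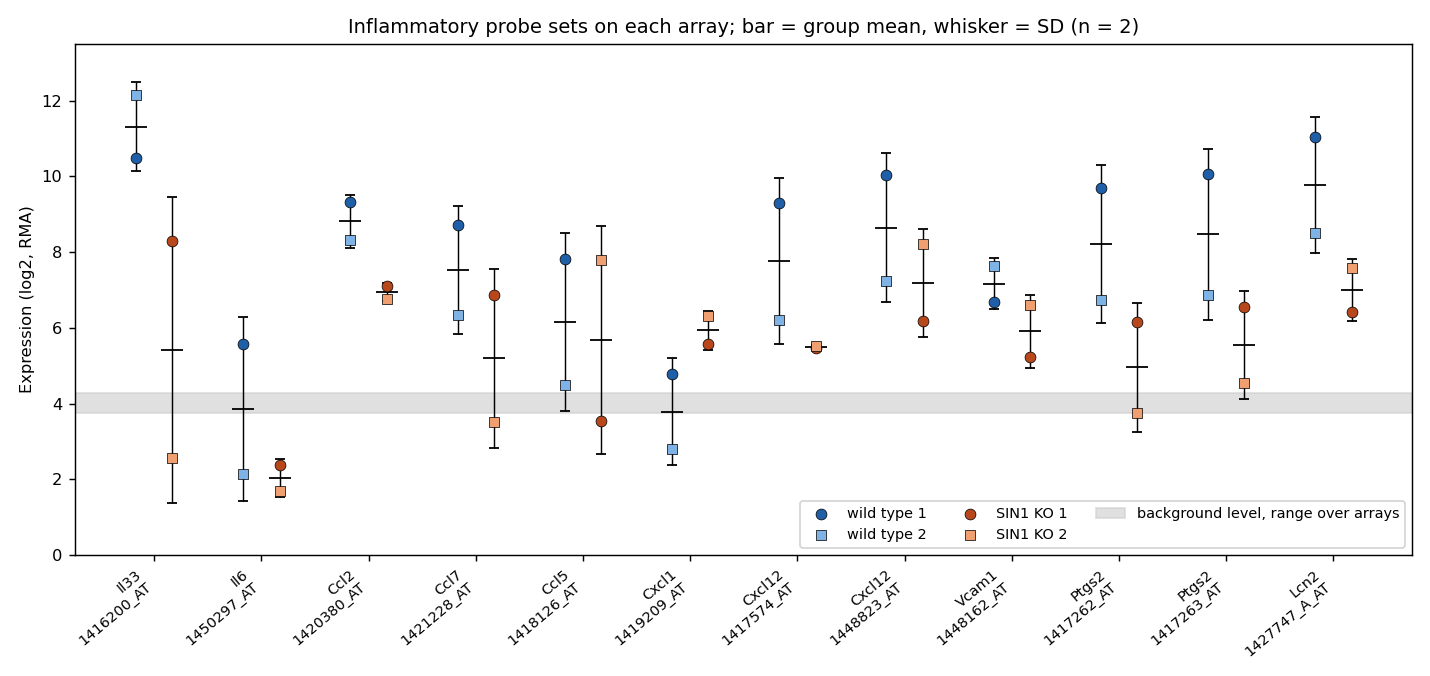
Expression (log2, RMA) of the 12 probe sets on each array, with the group mean and SD (n = 2 arrays) and the range of the background level over the arrays in grey. Il33 is high on both wild type arrays and under the grey band on SIN1 KO 2, and Cxcl1 is the only probe set with both SIN1 KO arrays above both wild type arrays.

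Il33 encodes IL-33, the IL-1 family alarmin that signals through the receptor ST2. Its probe set 1416200_AT measured 10.49 and 12.15 on wild type arrays 1 and 2, and 8.28 and 2.57 on SIN1 KO arrays 1 and 2. Both wild type arrays were high, SIN1 KO 1 was intermediate, and SIN1 KO 2 was below its array's background, so the genotypes did not overlap and the gap between them was 2.20. The mean was 11.32 ± 1.17 in wild type against 5.42 ± 4.04 in SIN1 KO (SD, n = 2). The difference of the deposited values was -5.89 (SE 2.03). With the value of SIN1 KO 2 raised to its background it was -5.04, and without that array it was -3.03. The lower level of Il33 in SIN1 KO was present in both knock-out arrays, but it was larger in SIN1 KO 2, which lay at least 4.01 log2 units under SIN1 KO 1 by its background level.

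Il6 encodes IL-6, the cytokine that drives the acute phase response through gp130. Its probe set 1450297_AT measured 5.58 and 2.14 in wild type against 2.38 and 1.68 in SIN1 KO, in the order of the array numbers. Only wild type 1 was above background, so the groups overlapped and no fold is given. The mean was 3.86 ± 2.43 in wild type against 2.03 ± 0.49 in SIN1 KO (SD, n = 2), a difference of -1.83 (SE 1.21). The difference became -0.11 without wild type 1 and -3.55 when wild type 2 was dropped. With values under background raised to it, the difference was -0.74. Il6 was thus measurable on 1 of the 4 arrays, and the comparison of genotypes rests on that array.

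Ccl2 encodes MCP-1, the main attractant of monocytes. Its probe set 1420380_AT measured 9.32 and 8.31 in wild type against 7.11 and 6.77 in SIN1 KO. All 4 arrays were above background, the genotypes did not overlap, and their gap of 1.21 was wider than the 1.00 between the wild type arrays. The mean was 8.81 ± 0.71 in wild type against 6.94 ± 0.24 in SIN1 KO (SD, n = 2). The difference was -1.88 (SE 0.43), a factor of 3.67. It stayed between -1.38 and -2.38 when each array was left out. Of the 12 probe sets, Ccl2 had the smallest standard error.

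Ccl7 encodes MCP-3, a related monocyte attractant, and the RefSeq gene table lists 0 genes between Ccl2 and Ccl7. Its probe set 1421228_AT measured 8.73 and 6.33 in wild type against 6.86 and 3.52 in SIN1 KO. SIN1 KO 1 lay above wild type 2, so the genotypes overlapped, unlike those of its neighbour Ccl2, and SIN1 KO 2 was below background. The mean was 7.53 ± 1.69 in wild type against 5.19 ± 2.36 in SIN1 KO (SD, n = 2), a difference of -2.34 (SE 1.41), or -1.96 with SIN1 KO 2 raised to background. It was -1.14 when wild type 1 was left out, -3.54 without wild type 2, -4.01 without SIN1 KO 1 and -0.67 without SIN1 KO 2.

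Ccl5 encodes RANTES, an attractant of T cells and monocytes. Its probe set 1418126_AT measured 7.81 and 4.50 in wild type against 3.54 and 7.80 in SIN1 KO. The high arrays were 1 of each genotype, wild type 1 and SIN1 KO 2, where SIN1 KO 2 minus wild type 1 was -0.010. The mean was 6.15 ± 2.34 in wild type against 5.67 ± 3.01 in SIN1 KO (SD, n = 2), and the difference of -0.48 (SE 1.84) was smaller than either spread. Its sign depended on the arrays: it was 1.17 without wild type 1, 1.65 without SIN1 KO 1, -2.14 without wild type 2 and -2.61 without SIN1 KO 2. Ccl5 was the member whose sign turned when an array was left out.

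Cxcl1 encodes KC, an attractant of neutrophils. Its probe set 1419209_AT measured 4.78 and 2.79 in wild type against 5.56 and 6.30 in SIN1 KO. Both SIN1 KO arrays were above both wild type arrays, by a gap of 0.78, and wild type 2 was below background. The mean was 3.78 ± 1.41 in wild type against 5.93 ± 0.52 in SIN1 KO (SD, n = 2). The difference was 2.15 (SE 0.76). It fell in size to 1.15 without wild type 2, and it was 1.59 with values under background raised to it. The direction of Cxcl1 was opposite to that of Ccl2, Ptgs2 and Lcn2 on the same arrays.

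Cxcl12 encodes SDF-1, and was measured by a pair of probe sets. Probe set 1417574_AT measured 9.31 and 6.21 in wild type against 5.46 and 5.53 in SIN1 KO. Here the SIN1 KO arrays were nearly equal and both below wild type, by a gap of 0.68. Probe set 1448823_AT measured 10.05 and 7.25 in wild type against 6.17 and 8.20 in SIN1 KO. Here SIN1 KO 2 lay above wild type 2 and the genotypes overlapped. The difference was -2.26 (SE 1.08) for the first probe set and -1.46 (SE 1.19) for the second. Both depended on wild type 1: without it they were -0.71 and -0.063, and with wild type 2 dropped they were -3.81 and -2.86. The second was also -0.45 without SIN1 KO 1 and -2.48 without SIN1 KO 2. The probe sets thus agreed on wild type 1 as the highest array and disagreed on SIN1 KO 2. RefSeq lists 3 curated Cxcl12 transcripts, and which of them each probe set detects was not analysed here.

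Vcam1 encodes the receptor that binds leukocytes through the integrin VLA-4. Its probe set 1448162_AT measured 6.68 and 7.64 in wild type against 5.23 and 6.59 in SIN1 KO. The genotypes were apart by 0.092 only, the narrowest gap among the 7 separated probe sets. They overlapped slightly after cyclic loess (gap -0.0068) and after scaling to the hybridisation controls (gap -0.23). The mean was 7.16 ± 0.67 in wild type against 5.91 ± 0.96 in SIN1 KO (SD, n = 2), a difference of -1.25 (SE 0.61). The difference was -0.57 without SIN1 KO 1, -1.93 without SIN1 KO 2 and -0.77 without wild type 2. With Il33, Vcam1 was 1 of the 2 probe sets that were higher in wild type 2 than in wild type 1.

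Ptgs2 encodes COX-2, the inducible enzyme that makes the precursor of prostaglandins. Its probe set 1417262_AT measured 9.69 and 6.74 in wild type against 6.16 and 3.74 in SIN1 KO. Its other probe set, 1417263_AT, measured 10.06 and 6.88 in wild type against 6.55 and 4.53 in SIN1 KO. Both probe sets placed the arrays in the same order, with wild type 1 highest, then wild type 2, SIN1 KO 1 and SIN1 KO 2. The genotypes did not overlap in either, by gaps of 0.58 and 0.33, which were small beside the 2.94 and 3.18 between the wild type arrays. The differences were -3.26 (SE 1.31) and -2.93 (SE 1.29). SIN1 KO 2 was below background for 1417262_AT, whose difference was -3.00 with that value raised to background, and above it for 1417263_AT, whose difference is a factor of 7.60. They were -1.79 and -1.34 without wild type 1, -4.73 and -4.52 with wild type 2 left out, and -2.05 and -1.92 without SIN1 KO 2. Their sign was the same under each array left out, and the size varied.

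Lcn2 encodes lipocalin 2, an acute phase protein that binds bacterial iron carriers. Its probe set 1427747_A_AT measured 11.05 and 8.51 in wild type against 6.42 and 7.57 in SIN1 KO. All arrays were above background, and both SIN1 KO arrays lay under wild type by a gap of 0.94. The mean was 9.78 ± 1.80 in wild type against 7.00 ± 0.81 in SIN1 KO (SD, n = 2). The difference was -2.78 (SE 0.97), a factor of 6.89, and it was -1.51 without wild type 1.

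**Figure D2:**
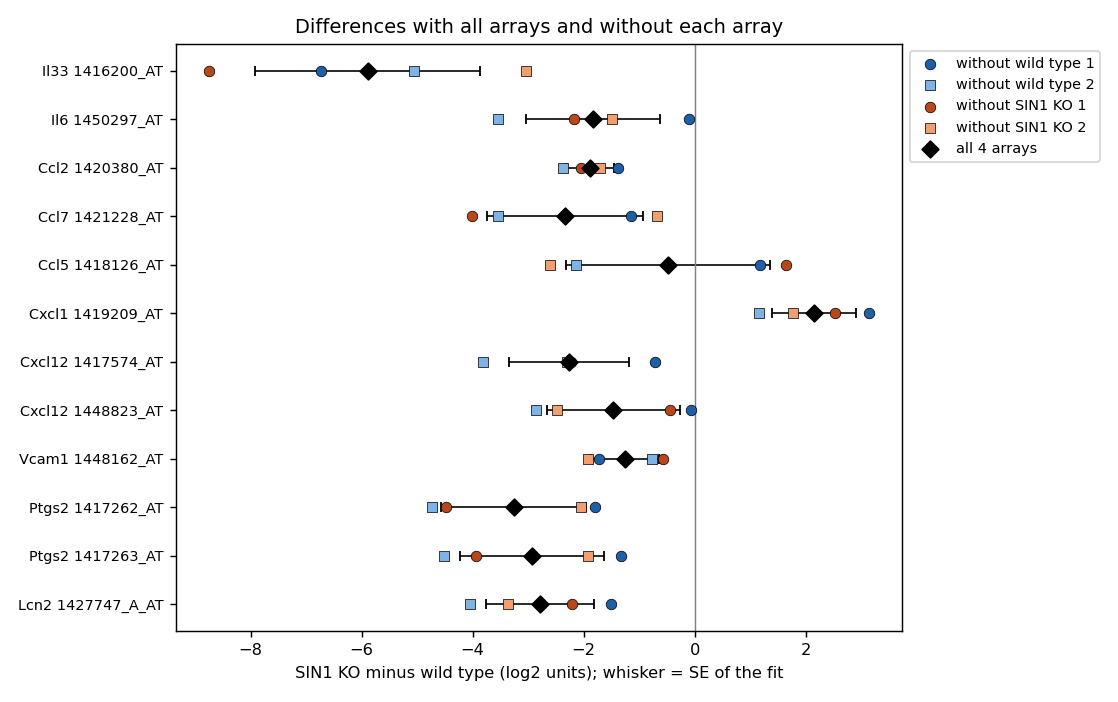
Difference between SIN1 KO and wild type (log2 units) for each probe set with all 4 arrays (diamonds, with the standard error of the fit) and with each array left out. Ccl2 stays between -1.38 and -2.38, whereas Ccl5 runs from -2.61 to 1.65 and crosses 0.

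The array wild type 1 held the highest of the 4 values for 9 of these 12 probe sets, beside 18.3% of all probe sets. The list was made with the values of these arrays in view, so shares by array are partly fixed by that choice, and nothing is read from them or from the shares between the wild type arrays below. Wild type 2 was highest for 2 (Il33 and Vcam1), SIN1 KO 2 for 1 (Cxcl1) and SIN1 KO 1 for 0. These arrays were highest for 28.5%, 37.2% and 15.9% of all probe sets. The lowest value was on SIN1 KO 2 for 6 probe sets, on SIN1 KO 1 for 5 and on wild type 2 for 1. The shares of all probe sets were 26.1%, 19.9% and 37.6%. The medians of the 12 probe sets were 9.31 on wild type 1, 6.81 on wild type 2, 6.17 on SIN1 KO 1 and 5.92 on SIN1 KO 2. By these medians, the step between the wild type arrays was larger than that from wild type 2 to either SIN1 KO array. Il33 and Vcam1 were instead higher on wild type 2 than on wild type 1. Nothing is read from these medians either, as they come from the same list.

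**Figure D3:**
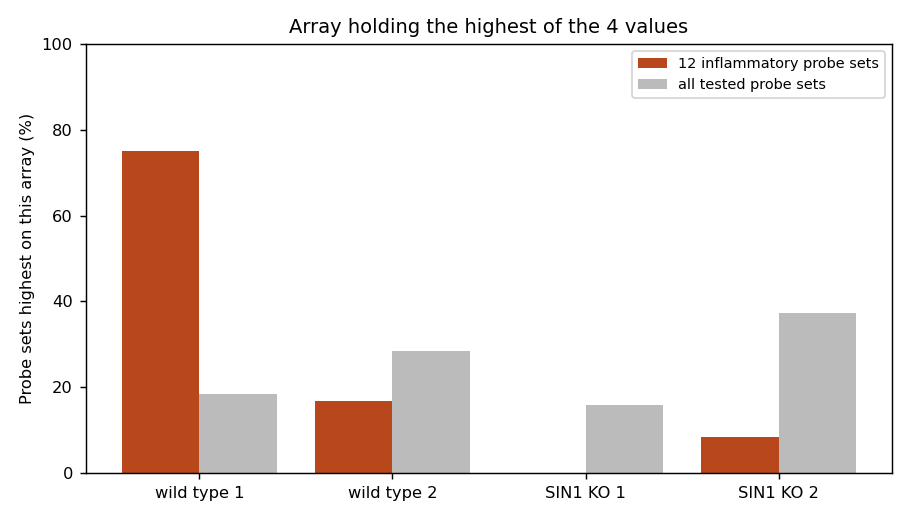
Percent of probe sets whose highest value lay on each array, for the 12 inflammatory probe sets and for all 45037 tested. Wild type 1 holds 75.0% of the inflammatory probe sets, beside 18.3% of all.

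Between the wild type arrays, whose values were also known when the list was made, 10 of the 12 probe sets were at least 1 log2 unit higher on wild type 1, beside 6.49% of all probe sets. By at least 2 units it was 8 of 12, beside 1.10%. These counts use the deposited values. Il6 and Cxcl1 were below background on wild type 2, so the size of their differences was not measured. Il6 is in both counts and Cxcl1 in the first. With wild type 2 taken at its background level of 3.91, Cxcl1 (4.78 on wild type 1) would leave the first count. Il6 (5.58 on wild type 1) would then leave the second. Ccl2 stood at the edge of the first count, at 1.00. Among the 27812 probe sets above background on at least 1 array, as all members were, these shares were 9.84% and 1.75%. Il6 was above background only on wild type 1, the array where it was high. The median size of the difference between the wild type arrays was 2.67 for the members and 0.38 over all probe sets, and between the SIN1 KO arrays it was 1.69 and 0.40. Each of these compares 1 array with another and has no replicate. Since the arrays of wild type bear the same labels, what set them apart was not tested.

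**Figure D4:**
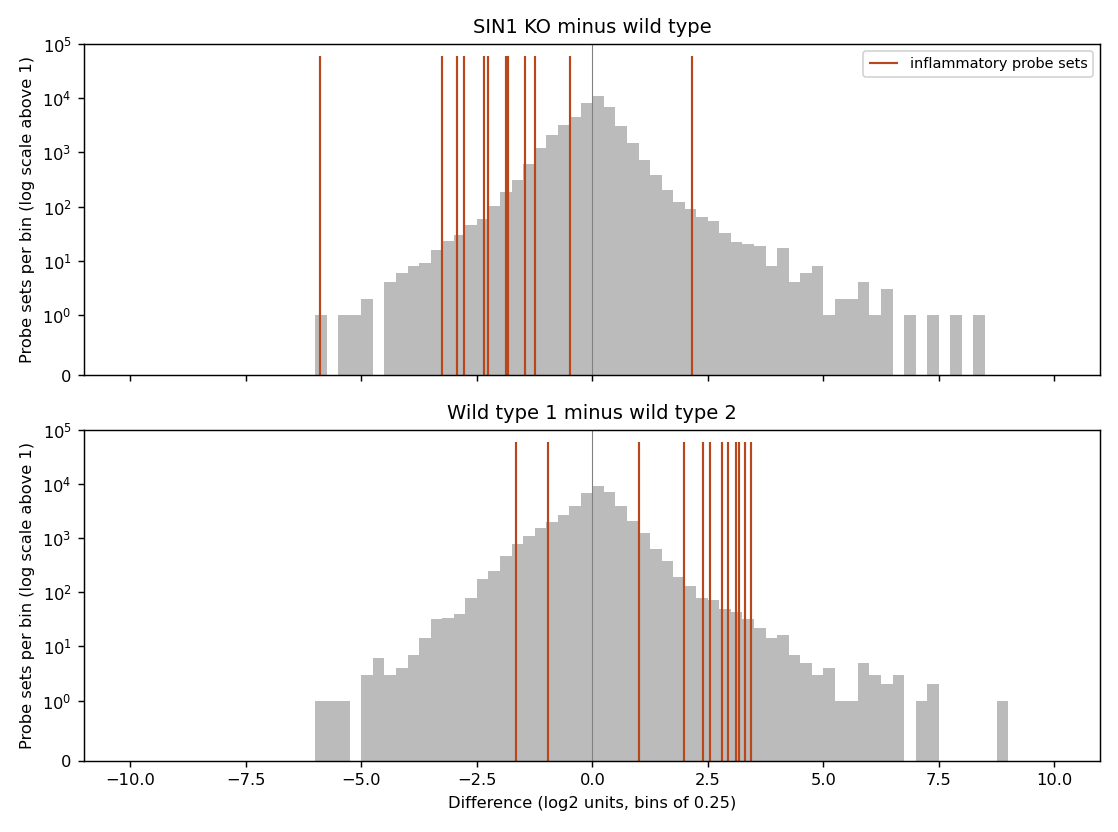
Histograms of SIN1 KO minus wild type (top) and of wild type 1 minus wild type 2 (bottom) over all 45037 probe sets, in bins of 0.25 log2 units, with the 12 inflammatory probe sets as lines. In the top panel 11 lines lie below 0, and in the bottom panel 10 lie at 1 or more. Of these 10, Il6 and Cxcl1 were below background on wild type 2.

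Against wild type 1, both SIN1 KO arrays were lower for the same count of probe sets, 11 of 12 each, with medians of -3.36 for SIN1 KO 1 and -3.63 for SIN1 KO 2. Against wild type 2 the count was 9 of 12 each, with medians of -0.85 and -0.99. Over all probe sets the corresponding medians lay between -0.02 and 0.13. These 4 comparisons share arrays and are not independent of each other. The list was made with these values in view, so nothing is read from the counts or medians. Without wild type 1 the median difference of the 12 probe sets was -1.24, and on leaving out wild type 2 it was -3.54, beside -2.07 with all arrays.

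Likeness was measured as the distance between log2 profiles over the 4 arrays, each centred on its own mean. The Ptgs2 probe sets were the closest pair, 0.47 apart. Il6 and Cxcl12 (1417574_AT) followed at 0.73, both highest on wild type 1; 3 of the 4 Il6 values were below background, where a profile has no measured order. Il33 and Cxcl1 had no near neighbour among the members: the nearest lay 4.79 from Il33 (Ptgs2) and 3.74 from Cxcl1 (Ccl5). Outside the list, the probe set nearest to Il33 was 1438405_AT, at 1.35, with 9.45 and 10.09 in wild type against 8.11 and 1.71 in SIN1 KO, below background on SIN1 KO 2 as Il33 was. The one nearest to Il6 was 1447845_S_AT, at 0.26, with 5.95 and 2.72 in wild type against 3.11 and 2.27 in SIN1 KO, and like Il6 it was below background on 3 arrays. Neither is paired with a gene in the tables used here.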

How the data were processed

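Total RNA was labelled with biotin and hybridised to 4 arrays, 1 column each. The deposited values are log2 expression made by the authors with RMA, per the submitters' processing notes; its version is not given in the sources used here, and their range, 0.80 to 14.17, gave the log2 scale. No further normalization was applied. The 64 control probe sets were left out of tests. SIN1 KO and wild type, grouped by the sample titles, were compared with limma 3.58.1 in R 4.3.3 (lmFit, eBayes without trend; median standard error 0.33) over 45037 probe sets, with Benjamini-Hochberg adjustment. The number of arrays limits the precision: an exact two-sided permutation test of 2 against 2 cannot go below p = 0.333.

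The members, gene lists and rules were chosen with earlier results of these data known. The rule named all members, separated genes of a wider inflammatory list, and the probe sets nearest to Il33 and Il6. The wider list, of which none could be named, the cell type markers and Mapkap1 were not analysed here, since no table used here pairs their probe sets with genes. Python 3.11.15 with matplotlib 3.10.9 was used for the figures.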

Additional observations from a re-analysis of the deposited data

How the results depend on the processing

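The signs of the 12 differences were the same under median centring, cyclic loess, scaling to the hybridisation controls (which moved the median of all probe sets from 0.04 to 0.36) and values under background raised to it. The replicate block leaves each difference unchanged by construction, so it tests neither sign nor size. With the block counted, all 60 such values moved by under 1 SD between replicates. The median difference of the 12 ranged from -1.75 to -2.07 there and was -1.87 with 1 value per gene. Leaving out 1 array moved it to between -3.54 and -1.24, and the difference of Ccl5 to between -2.61 and 1.65, the sign that turned in 2 of 48 such values. The count of probe sets lower on both SIN1 KO arrays was 6 after cyclic loess and after scaling to the hybridisation controls, where Vcam1 overlapped. It was 7 to 11 with 1 array left out, which loosens the rule by construction. Cxcl1 remained the 1 higher probe set. The shares over all probe sets were not taken under these settings, so nothing is read from these counts. limma's calls over all probe sets were 0 in both directions under every alternative but the filter at the median level, which gave 5 higher; fits with a block or without an array had 1 residual degree of freedom and tested little. The labels do not state that the array number marks a shared culture or day, so the numbers were not taken to pair the samples. The deviations of arrays with the same number correlated negatively (r = -0.415 across probe sets), which does not settle whether samples were paired. The replicate block gave 0 calls, and its median difference of -2.07 is the main value by construction. The crossed pairing and the second highest control as background were added after seeing the data, and that pairing as a block gave 0 calls. The alternatives for the wider inflammatory list were not run, since its probe sets could not be named.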
